A study of Mus musculus with 3 samples.

Results

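Tnf, Lta and Ltb are 3 neighbouring genes of mouse chromosome 17 that encode tumour necrosis factor (TNF), lymphotoxin alpha and lymphotoxin beta. They were taken by symbol from the 55536 annotated genes of the deposited tables, and each symbol matched 1 gene entry. RNA bound to chromatin, the fraction that holds nascent transcripts, had been isolated from bone-marrow-derived macrophages (BMDMs) of the C57BL/6J mouse strain, depleted of ribosomal RNA and sequenced. All 3 libraries belong to 1 group: cells exposed for 90 minutes to 100 ng/ml lipid A, the membrane anchor of bacterial lipopolysaccharide that is sensed by Toll-like receptor 4. The starting material was 1 µg of RNA in replicate 1, 250 ng in replicate 2 and 500 ng in replicate 3. The labels number them as biological replicates but give the same donor for all 3, and sex and age were not collected, so the p-values here measure the spread between these libraries, which may be technical. Unstimulated cells and other times are not analysed here, so every comparison is between genes of the same library or between quantifications of it.

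TNF is made as a membrane-bound trimer, is released by the protease TACE, and signals through 2 receptors to NF-κB, to MAP kinases and to cell death. Lymphotoxin alpha is secreted as a homotrimer that binds the TNF receptors, or joins lymphotoxin beta in a membrane complex that binds the lymphotoxin beta receptor and directs the formation of lymph nodes. Macrophages are a main source of TNF, which is an immediate early target of Toll-like receptor signalling, while the lymphotoxins are known mainly from lymphocytes and innate lymphoid cells.

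In the GENCODE M21 annotation of the mm10 genome, Ltb (ENSMUSG00000024399.5) covers chr17:35194439-35196320 on the plus strand. Tnf (ENSMUSG00000024401.14) covers chr17:35199381-35202007 and Lta (ENSMUSG00000024402.5) covers chr17:35203165-35205351, both on the minus strand. The 3 genes span 10913 bases. The ends of Ltb and Tnf face each other across 3060 bases, and the start of Tnf lies 1157 bases beyond the end of Lta. No other annotated gene overlaps Tnf, and the genes for Mir6973a and Mir6974, which lie in introns of Ltb and Lta on the same strand, had 0 TPM in the 3 libraries.

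The upstream sequences of the 3 genes are shown for the core promoter elements they hold. They are the bases before the annotated start, read 5′ to 3′ on the gene's own strand from the RefSeq table of build GRCm38.p6. The windows are chr17:35202008-35202257 for Tnf, chr17:35205352-35205601 for Lta and chr17:35194257-35194438 for Ltb, whose M21 start cuts the window to 182 bases. Capitals mark matches to TATAAA, the TATA box, and to GGGNNNNNCC, a loose form of the NF-κB site, each searched on both strands.
Tnf: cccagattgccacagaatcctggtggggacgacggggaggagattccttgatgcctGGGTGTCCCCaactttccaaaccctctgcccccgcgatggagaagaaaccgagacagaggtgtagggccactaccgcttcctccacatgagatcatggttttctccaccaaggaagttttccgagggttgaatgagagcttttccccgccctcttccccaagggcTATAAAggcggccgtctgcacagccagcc
Lta: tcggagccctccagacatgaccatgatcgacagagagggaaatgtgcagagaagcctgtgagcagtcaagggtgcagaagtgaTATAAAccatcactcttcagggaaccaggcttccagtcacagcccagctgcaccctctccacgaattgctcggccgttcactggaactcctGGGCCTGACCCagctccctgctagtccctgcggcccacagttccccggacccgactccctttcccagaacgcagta
Ltb: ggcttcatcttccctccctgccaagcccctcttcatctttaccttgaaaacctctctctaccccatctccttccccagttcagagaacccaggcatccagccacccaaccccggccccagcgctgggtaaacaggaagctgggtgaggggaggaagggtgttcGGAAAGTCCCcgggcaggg

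In the Tnf window TATAAA began 29 bases before the start (position -29), and in the Lta window at -167. The Ltb window held no match. Of the 250-base windows of 20149 promoters, 11.2% held TATAAA. For Ltb the background is the first 182 bases of each of these windows, called short windows here, of which 7.18% held it. The short windows leave out the bases nearest the RefSeq start. They are thus not matched to the Ltb window, which ends at the M21 start. GGGNNNNNCC was matched at -194 in Tnf by a sequence that reads as a match on both strands, at -76 and -75 in Lta by 2 overlapping matches, and at -19 in Ltb. This motif was in 52.7% of the 250-base windows and in 38.2% of the short ones. GGAAGT, a site of ETS factors such as PU.1, was found at -83 in Tnf and in neither of the others, against 20.8% of the 250-base and 13.5% of the short windows. TGANTCA, the AP-1 site, was in none of the 3 windows, against 6.13% and 4.6%. These are matches of letters, and no binding was measured.

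Tnf was among the most abundant protein-coding genes of the chromatin fraction. It had 4047, 6224 and 5946 expected counts in replicates 1 to 3, which the authors' tables give as 201.96, 165.03 and 200.76 TPM, a unit corrected for transcript length and for the library's total. The mean was 189 ± 20.98 TPM (SD, n = 3), with replicate 2 the lowest and replicates 1 and 3 nearly equal. The authors' 95% credibility intervals were 180.9 to 192.7, 153.7 to 161.7 and 184.8 to 194.7 TPM around posterior means of 186.78, 157.72 and 189.86, so the TPM itself lay above its interval in each library. Among 10530 protein-coding genes with a mean of at least 10 counts, Tnf ranked 167th, 117th and 115th. In bulk RNA, fewer cells that transcribe a gene and less RNA per cell cannot be told apart.

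To set a gene against the typical expressed gene of its library, its level was taken as log2(TPM + 1) minus the median of those protein-coding genes, which was 5.5, 3.7 and 4.93 TPM in replicates 1 to 3. The level of Tnf was 4.96, 5.14 and 5.09 log2 units. It was 5.07 ± 0.09 on average (SD, n = 3), or 33.5-fold over the median on the TPM + 1 scale. A gene was called where its level lay beyond a bound of 1 log2 unit on either side in limma's treat test, and Tnf was called above it with an adjusted p of 7.6e-06. Of the 13434 genes tested, 21.3% were called above and 21.3% below. Of the 3 genes of the locus 2 were tested, 1 of them called above and 1 below, too few to read against those shares.

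**Figure D1:**
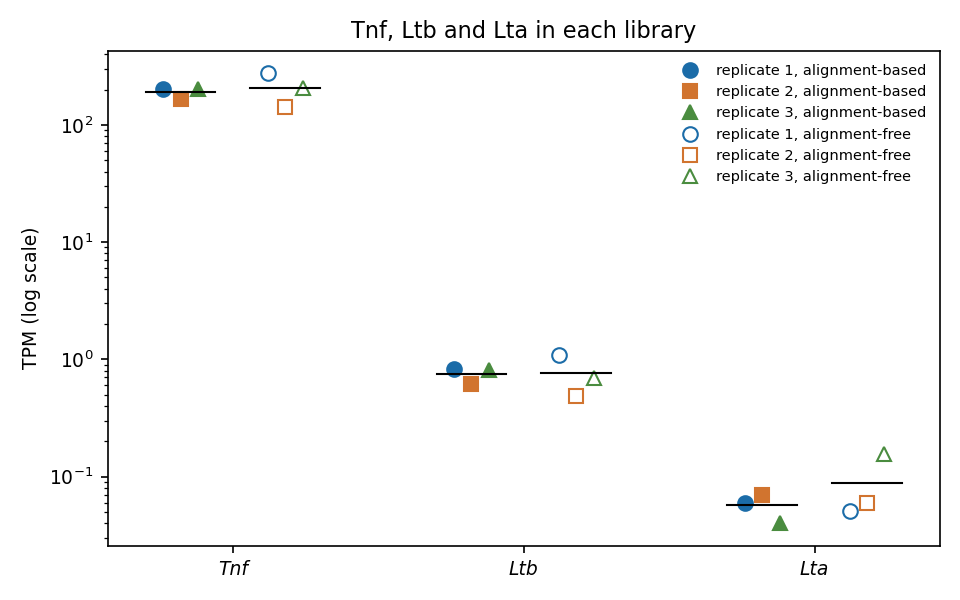
TPM of Tnf, Ltb and Lta on a log scale in each library, with the alignment-based quantification as filled and the alignment-free one as open symbols; horizontal lines are means of 3 libraries. The filled symbols lie between 165.03 and 201.96 TPM for Tnf, between 0.62 and 0.83 for Ltb and between 0.04 and 0.07 for Lta, with no overlap between genes.

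Ltb gave few counts: 14, 19 and 16 in replicates 1 to 3. Its TPM was 0.83, 0.62 and 0.81, a mean of 0.753 ± 0.116 (SD, n = 3), and the credibility intervals of the 3 libraries, 0.5597 to 1.56, 0.4315 to 1.074 and 0.4964 to 1.323, overlap each other. Of the protein-coding genes tested, 13.45%, 15.18% and 15.24% lay below Ltb. Its level was -1.83, -1.54 and -1.71 log2 units, a mean of -1.69 ± 0.15 (SD, n = 3), where a gene listed at 0 would have -2.50. It was called below the bound by limma's treat, with an adjusted p of 0.00729. The call rests on the genes that enter the median and on replicate 3: with no minimum count the level was -0.74 and the adjusted p 1, and without replicate 3 the adjusted p was 0.0791. On a count scale with no pseudocount, in edgeR, the level of Ltb was -2.63.

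Lta had 1, 2 and 1 counts. Its TPM was 0.06, 0.07 and 0.04, and the upper ends of the credibility intervals were 0.2686, 0.1995 and 0.1877. It did not reach the minimum of 10 counts and was not tested. Its level would be -2.42 ± 0.25 (SD, n = 3), next to the value of a gene at 0. With no minimum count Lta was tested, and its level of -1.47 against the lower median of that setting was called below (adjusted p = 0.0268, limma's treat). In that setting 5539 of 22549 genes were called below. Lta again lay next to the value of a gene at 0, so this call says only that Lta was near the floor. The 4 counts came from 11277198 to 24965749 expected counts a library, so the value of Lta in any 1 library rests on 1 or 2 counts.

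The order Tnf, Ltb, Lta held in each of the 3 libraries. The difference of Tnf and Ltb in log2(TPM + 1) was 6.79, 6.68 and 6.80 (mean 6.76 ± 0.07, SD, n = 3), and that of Tnf and Lta was 7.58, 7.28 and 7.6 (mean 7.49 ± 0.18). Lta minus Ltb was -0.79, -0.60 and -0.80 (mean -0.73 ± 0.11), the smallest of the 3 differences in size. Both genes lie below 1 TPM, so the pseudocount of 1 compresses this difference. With a pseudocount of 0.1 it was -2.44 ± 0.32, still the smallest of the 3. A two-sided exact test that flips the signs of the library differences gave p = 0.25 for each of the 3 pairs, raw and adjusted, which is the smallest p that 3 libraries allow. Per transcript length, Tnf counts were 244.1, 267.4 and 248.6 times those of Ltb, and 257.1 times over the pooled 16217 and 49 counts, with a 95% interval of 194.4 to 347.7 for counting error alone. For Tnf over Lta, with 4 Lta counts in all, the pooled ratio was 3314 with an interval of 1294 to 12160. Counting error alone thus leaves the ratio to Lta within about an order of magnitude, and that to Ltb within a narrower range. The ratios also depend on the estimate. Posterior means for Ltb were 1.04, 0.75 and 0.89 TPM, above its TPM in each library, while those for Tnf were below its TPM. Reads wholly within an intron can enter the counts of Ltb, which has an annotated transcript with a retained intron. Tnf has no such transcript.

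**Figure D2:**
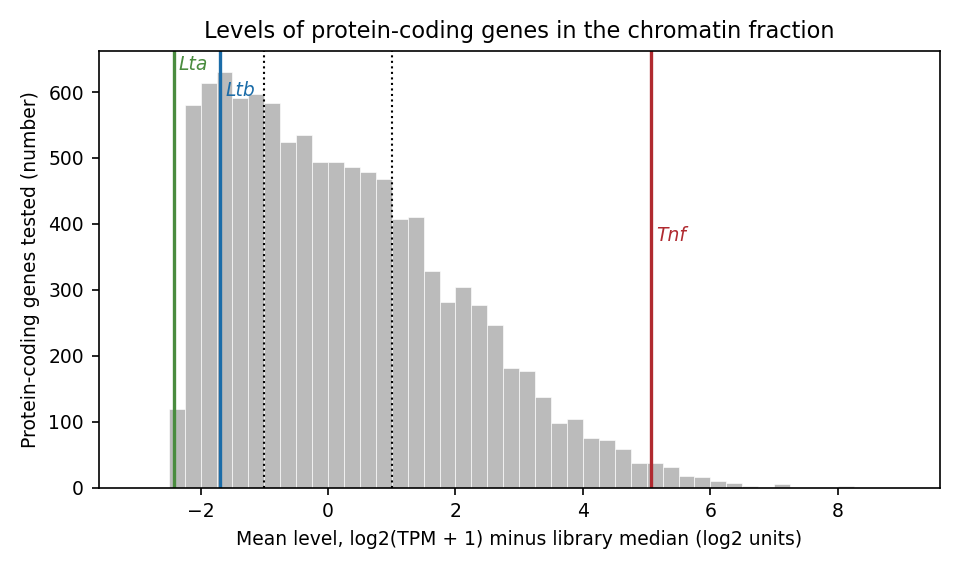
Number of protein-coding genes tested by mean level over 3 libraries, in log2 units from the library median, with the bounds at -1 and 1 dotted and the 3 genes as coloured lines. Tnf at 5.07 lies in the thin upper tail, Ltb at -1.69 in the dense lower range, and Lta at -2.42 at the lower edge, where it is drawn although it was not tested.

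The libraries differed in how much of their depth went to protein-coding genes, and this sets how Tnf appears per library. Protein-coding genes took 68.4%, 40.2% and 50.3% of all expected counts in replicates 1 to 3, while 3 genes at the ribosomal RNA repeats of chromosome 17 (Gm26917, CT010467.1 and Gm42418) took 9.3%, 50.8% and 38.3%. As CPM, a share of the library's counts, Tnf had 359, 249 and 300.4, highest in replicate 1. As CPM of protein-coding counts alone it had 525, 620 and 597, lowest in replicate 1. With TMM normalization the SD of log2 CPM over the 3 libraries was 0.23 for Tnf and 0.15 for Ltb, against a median of 0.40 over all genes tested. Of those genes 25.1% had a smaller SD than Tnf and 12.5% a smaller one than Ltb, and the values depend on single libraries. For Tnf the SD was 0.09 without replicate 1 and 0.34 without replicate 3, and for Ltb it was 0.03 without replicate 2. With 14, 19 and 16 counts, the SD of Ltb is too exposed to counting error to show that it was steady. The biological coefficient of variation in edgeR, which sets counting error apart, was 0.28 for Tnf and 0.33 for Ltb. Its median over genes tested was 0.34.

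Tnf has 2 annotated transcripts, Tnf-201 with 4 exons and Tnf-202, which lacks exon 3, of 48 bases (chr17:35200858-35200905, a coding exon). The sequences show what tells them apart, on the minus strand, from M21 transcripts. The first holds exon 3 in capitals between 15 bases of exon 2 and of exon 4, and the second the direct junction of Tnf-202.
Tnf-201: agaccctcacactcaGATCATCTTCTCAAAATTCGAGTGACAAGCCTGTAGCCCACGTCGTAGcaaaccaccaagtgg
Tnf-202: agaccctcacactcacaaaccaccaagtgg

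All Tnf counts of the alignment-based tables were given to Tnf-201. Tnf-202 had 0 of 4047, 6224 and 5946 counts. Were every read able to tell the transcripts apart, counting error would allow up to 0.0741%, 0.0482% and 0.0505%. Only reads at exon 3, at its junctions or at the transcript ends can do so, so these limits are too low. By posterior means Tnf-202 held 0.6532%, 0.2473% and 0.2107% of Tnf TPM, and the authors' intervals reached 4.148, 1.112 and 1.275 TPM. In the alignment-free tables Tnf-202 had 0.274, 0.151 and 0.2 TPM, and Tnf-201 held 99.9%, 99.89% and 99.9% of Tnf TPM. The transcript with exon 3 thus made up nearly the whole of Tnf in both quantifications.

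Ltb has 3 annotated transcripts. Ltb-201 and Ltb-203 are protein-coding, and Ltb-202 keeps the last intron (chr17:35195366-35195703, 338 bases, 23.9% of its length), a feature shared with unspliced RNA. The sequences are the edges of that intron on the plus strand from the M21 transcript, with the first and last intron bases in capitals. These are the GT and AG dinucleotides of the usual splice sites.
Ltb intron start: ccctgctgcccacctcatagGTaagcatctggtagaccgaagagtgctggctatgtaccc
Ltb intron end: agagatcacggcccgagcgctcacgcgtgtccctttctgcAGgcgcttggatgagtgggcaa

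Most Ltb counts of the alignment-based tables went to the transcript with the intron. Ltb-202 had 14, 17.1 and 10.7 of the 14, 19 and 16 counts, which is 100%, 87.1% and 53.09% of Ltb TPM (mean 80.1 ± 24.2, SD, n = 3). Ltb-201 took 12.9% in replicate 2 and 0% in the others, and Ltb-203 took 46.91% in replicate 3 and 0% in the others, so the remainder went to a different transcript in each of these libraries. In the alignment-free tables the share of Ltb-202 was 76.25%, 53.52% and 48.7% (mean 59.5 ± 14.7). The authors' intervals for Ltb-202, 0.317 to 1.126, 0.273 to 0.7788 and 0.189 to 0.7054 TPM, stayed apart from 0.

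As a background, transcripts annotated as retained introns took a median of 44.3% of TPM over the 6574 protein-coding genes tested that have one, and 93.9% of those genes lay below Ltb. Among the 823 of them with a mean count of 10 to 30, the median was 40.1% and 92% lay below. By the alignment-free tables the medians were 43.9% and 41.3%, and 71.2% and 68% of genes lay below Ltb. Ltb was thus above the median gene in both quantifications, but nearer to it in the second, and its shares rest on at most 19 counts a library. Tnf and Lta have no annotated transcript of this type, so reads wholly within their introns match no annotated transcript of these genes. How reads across an exon edge were assigned was not tested.

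**Figure D3:**
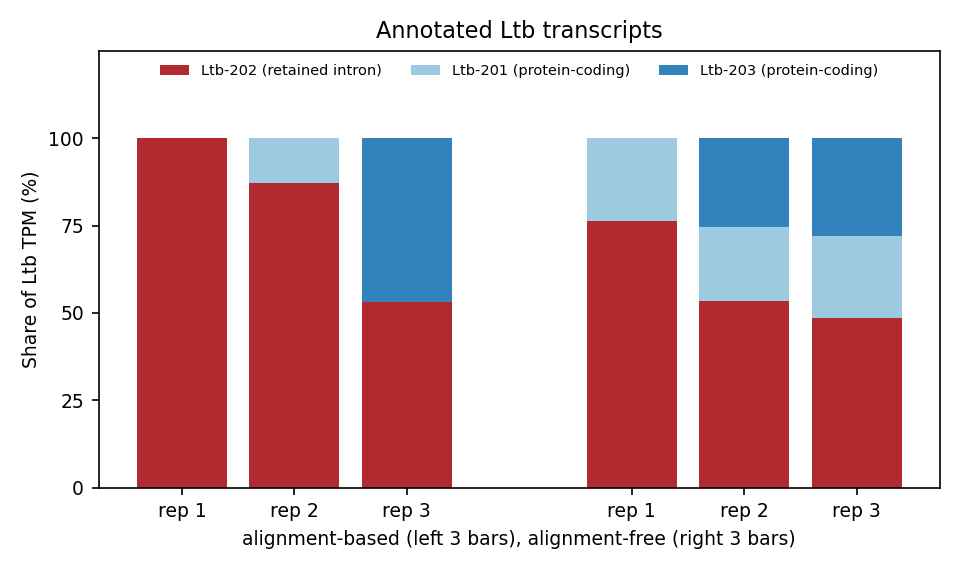
Share of Ltb TPM (%) given to each of its 3 annotated transcripts, stacked to 100%, in replicates 1 to 3 of the alignment-based (left) and alignment-free (right) quantification. The retained-intron transcript Ltb-202 takes 53.09% to 100% on the left and 48.7% to 76.25% on the right.

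Each library had been quantified a second time without an alignment file. By these alignment-free tables Tnf had 276, 142 and 205 TPM (mean 208 ± 67.2, SD, n = 3), Ltb 1.1, 0.485 and 0.699 (mean 0.761 ± 0.311), and Lta 0.051, 0.06 and 0.155. The order of the genes was the same, but the libraries lay further apart for Tnf, with replicate 1 the highest. The counts behind Tnf were 1.62, 1.84 and 1.65 times those of the alignment-based tables, close to the median over genes of 1.75, 1.76 and 1.72. After subtracting each library's median, the level of Tnf in the alignment-free tables minus that in the alignment-based ones was -0.54, -0.35 and -0.51 log2 units, a mean of -0.47 ± 0.10 (SD, n = 3), lower in each library. For Ltb it was -0.56 ± 0.27. By limma's treat against 1 log2 unit over 13427 genes neither difference was called (adjusted p = 1 for each). Calls were made for 1.9% of genes in the direction of the alignment-free tables and for 0.633% in the other.

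Tnf stood above each of the neighbouring genes listed, in each library. Of 12 neighbouring genes 11 had an entry (Mccd1 had none), 8 were tested, and 3 were called above and 0 below the bound, against 21.3% of genes for each. No neighbour had an unadjusted p under 0.05 below the bound (0 genes), and edgeR called 1 below, Atp6v1g2. Prrc2a, which encodes an RNA-binding protein, had 77.0, 98.4 and 107 TPM, a level of 4.06 ± 0.42 (adjusted p = 4.5e-05 by limma's treat). Ddx39b, an RNA helicase of splicing and mRNA export, had 74.0 ± 15.5 TPM and a level of 3.71. Bag6, a chaperone for membrane proteins, had 33.8 ± 5.57 TPM and a level of 2.61. None of these 3 genes lies next to Ltb, Tnf or Lta. Within Prrc2a the small nucleolar RNA gene Gm23442, which was outside the list and is named after its values were seen, was given 64.4, 1291 and 288 TPM.

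The 5 other neighbours tested were not called. Csnk2b, the regulatory subunit of casein kinase 2, had 13.0 ± 1.77 TPM, Nfkbil1, an IκB-like protein, 4.36 ± 1.41, and Aif1, the macrophage protein IBA1, 3.89 ± 0.641. Gpank1 had 1.66 ± 0.637 TPM and Atp6v1g2, a subunit of the vacuolar proton pump, 1.3 ± 0.113. Gpank1 overlaps Csnk2b, and Nfkbil1 overlaps Atp6v1g2 and Gm16181, on opposite strands. The strand setting of the counting is not given in the sources used here, so the values of these genes are uncertain.

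Lst1, a leukocyte transmembrane protein, the pseudogene Ncr3-ps and Apom, an apolipoprotein, did not reach the count minimum. Lst1, the nearest neighbour of Ltb, had 6, 8 and 7 counts and 1.91 ± 0.146 TPM, but 23.5, 5.89 and 18.1 TPM in the alignment-free tables. Ncr3-ps had 1 ± 0.309 TPM, against 11.4, 2.17 and 5.23 in the alignment-free tables. The difference in level between the quantifications was 1.80 for Lst1 and 1.10 for Ncr3-ps, beside -0.56 for Ltb, and was not tested for these 2 neighbours. Apom had 4, 3 and 1 counts.

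**Figure D4:**
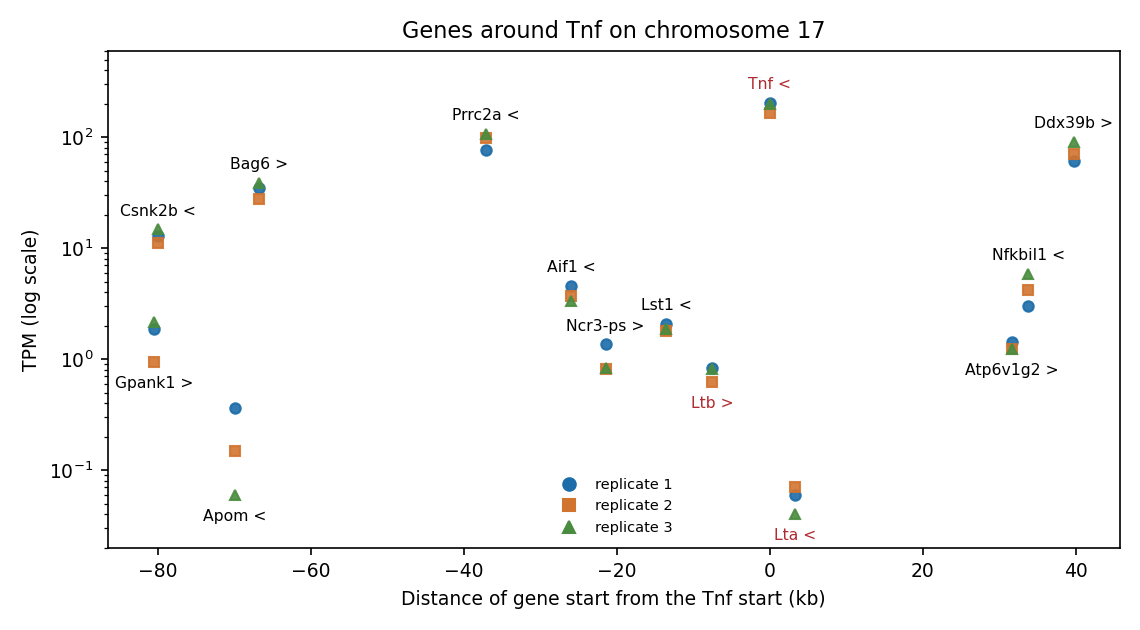
TPM on a log scale of Tnf, Ltb and Lta (red names) and 11 neighbouring genes in each library, by distance of the gene's start from that of Tnf in kb; > and < give the plus and minus strand. Tnf at 165.03 to 201.96 TPM stands between Ltb and Lta, which are below 1 TPM in the 3 libraries.

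Both TNF receptors were called above the bound. Of the 4 receptors of TNF and lymphotoxin, 3 were called above the bound and 0 below, against 21.3% of all genes for each. No gene of this list, of the processing list or of the mRNA control list lay below the bound at an unadjusted p under 0.05 (0 genes by limma's treat) or by edgeR (0 genes). Tnfrsf1b, which encodes TNF receptor 2, had 92.3, 85.8 and 112 TPM and a level of 4.10 ± 0.22 (SD, n = 3; adjusted p = 2.1e-05 by limma's treat). Tnfrsf1a, which encodes the death-domain receptor TNFR1, had 20.8, 10.5 and 15.6 TPM (level 1.51 ± 0.23, adjusted p = 0.0302). Tnfrsf14, the receptor HVEM, had 13.2, 14.7 and 18.2 TPM (level 1.52 ± 0.34, adjusted p = 0.0377). TNF receptor 2 was the highest of the 4 in each library.

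Ltbr encodes the lymphotoxin beta receptor, whose membrane ligand needs both Lta and Ltb. It had 7.51, 8.12 and 13.9 TPM, a level of 0.89 ± 0.47, and was not called (adjusted p = 1). In the alignment-free tables it had 32.6, 22.3 and 41.04 TPM, a difference in level of 1.06 ± 0.14 that was not called either. In each library and quantification the receptor thus had more TPM than either subunit of its ligand, whose highest value was 1.1 TPM, for Ltb in the alignment-free table of replicate 1.

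Of 25 genes that carry or restrain the signal of these receptors, 16 were called above and 1 below. The shares over all genes tested were 21.3% and 21.3%. Tnfaip3, which encodes the ubiquitin-editing enzyme A20 that ends NF-κB signalling and is itself an NF-κB target, had 702, 333 and 470 TPM, and its level of 6.41 ± 0.31 was the highest of these genes and above that of Tnf. Fadd, the adaptor that brings caspase 8 to death receptors, had 0.51, 0.42 and 0.6 TPM. Its level was -1.91 ± 0.19, and it was called below (adjusted p = 0.00273, limma's treat).

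Of 8 genes for the release and processing of TNF, 7 were tested, 3 were called above and 0 below, against 21.3% of all genes for each. The highest was Rhbdf2, which encodes iRhom2, the partner that carries TACE to the cell surface in macrophages, with 129, 117 and 145 TPM and a level of 4.53 ± 0.18. Adam17, which encodes TACE itself and is named here after its values were seen, had 41.003 ± 13.55 TPM and a level of 2.85. The lowest was Timp3, a TACE inhibitor, with 2, 11 and 4.98 counts, which was not tested. The protease and its carrier were called above, but 4 of the 7 genes tested were not called. The low count of Timp3 holds for the alignment-based tables only. The alignment-free tables gave it 12.4, 1.54 and 3.65 TPM, beside medians of 11.88, 4.15 and 7.63 TPM for the protein-coding genes tested. Frmd8, which stabilises the iRhom and TACE complex, was not called in level, but it was higher in the alignment-free tables by 1.596 ± 0.213 (adjusted p = 0.0441, limma's treat).

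Of 13 genes that control the stability and translation of Tnf mRNA, 9 were called above and 0 below, against 21.3% of all genes for each. The highest was Mapkapk2, the kinase MK2, which relieves the repression of Tnf mRNA, with 95.6, 61.5 and 77.0 TPM (level 3.78 ± 0.10). The lowest was Zfp36l1, a binder of AU-rich elements, with 2.5 ± 0.721 TPM and no call. Its relative Zfp36, which encodes tristetraprolin and is named here after its values were seen, had 76.2, 26.2 and 50.5 TPM (level 3.07 ± 0.52).

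Over the 4 lists of receptors, signalling, processing and mRNA control, 31 of 49 genes tested were called above and 1 below, against 21.3% and 21.3% of all genes. Their median level was 1.70, and 1.67 over all 50 genes, against -0.21 over all genes tested. These backgrounds cover all 13434 genes tested, of which 10530 were protein-coding, and levels are set against the median of the latter. With a minimum of 100 counts, which raises the median that levels are set against, 15 of these genes were called above and 2 below. Over all 7399 genes tested in that setting, 1317 were called above and 785 below. Genes of the lists with fewer counts were not tested there.

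Of 15 other ligands of the TNF family, 8 were tested, 1 was called above and 3 below, against 21.3% of all genes for each, so these counts lie near the background. Tnfsf9, the ligand of 4-1BB, had 163.57, 123.46 and 201.15 TPM and a level of 4.83 ± 0.23, beside 5.07 for Tnf. Tnfsf8 (CD30 ligand), Tnfsf10 (TRAIL) and Tnfsf14 (LIGHT, which also binds the lymphotoxin beta receptor and HVEM) were called below, at 0.32 ± 0.301, 0.52 ± 0.686 and 0.47 ± 0.01 TPM. For Tnfsf10 88 of its counts came from replicate 1, against 11 and 17 in replicates 2 and 3. Tnfsf11 (RANKL), Fasl and Cd40lg, ligands known from T cells, had 0 counts in the 3 libraries.

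**Figure D5:**
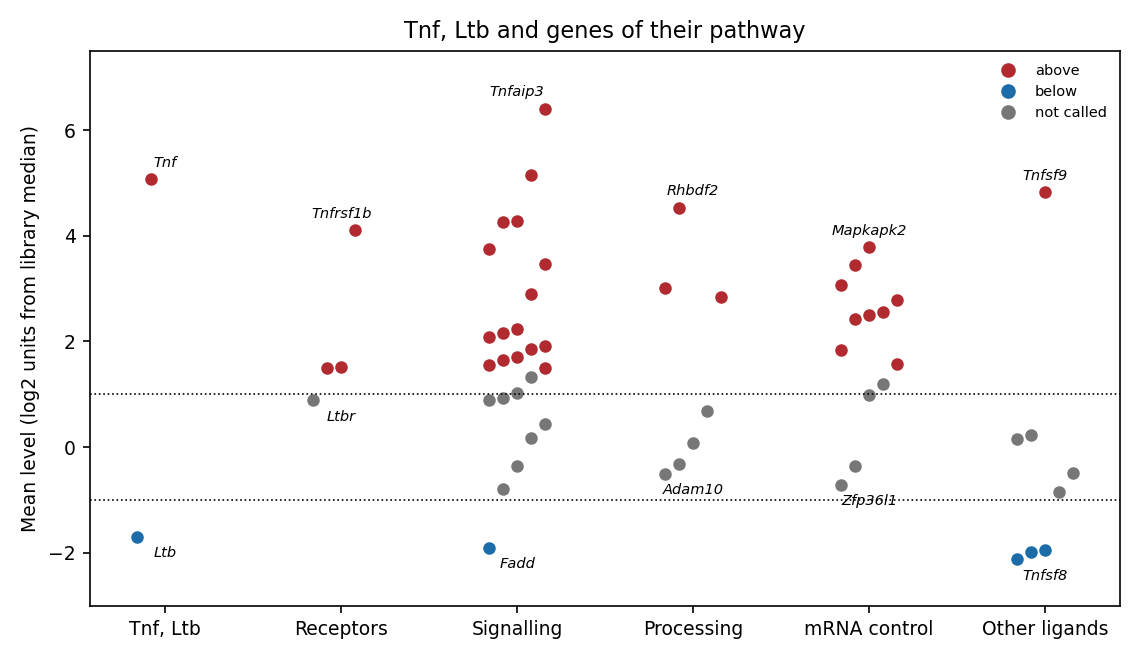
Mean level of each gene tested, in log2 units from the library median, for Tnf and Ltb and for 5 lists, coloured by call, with the bounds at -1 and 1 dotted and the highest and lowest gene of each list named. Most genes of the first 4 lists lie above 1, while the other ligands spread on both sides and Tnfsf9, at 4.83, lies near Tnf.

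The labelled cell type was checked against marker genes. Of 10 macrophage markers 8 were called above the bound, against 21.3% of all genes (and 21.3% below), with Msr1 and Adgre1 the highest at 224 ± 81.1 and 221 ± 45.9 TPM, and Itgam and Fcgr1 were not called. The macrophage markers summed to 722, 514 and 667 TPM, the 10 T and NK cell markers to 3.21, 1.78 and 3.83, and the 6 B cell markers to 0.57, 0.67 and 0.79. Cd3e, Cd8a, Ncr1 and Nkg7 had 0 counts in the 3 libraries, and Ms4a1, Cd79a, Cd79b and Pax5 had at most 2 in any. Of the T and NK list Cd4 (0.983 ± 0.79 TPM), Lck (1.14 ± 0.955) and Cd5 (0.76 ± 0.193) were tested, and Cd5 was called below. Of the B cell list Cd22 was tested (0.6 ± 0.173) and called below.

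Lymphocytes are a known source of Ltb and Lta, and in the alignment-based tables Ltb was at a level like that of these few markers. The part of lymphocytes in the Ltb value was not tested. By the alignment-free tables Lck had 6.28, 0.479 and 1.97 TPM and Cd22 3.14, 1.24 and 1.6. Cd4 had 1.39, 1.2 and 1.84 and Cd5 1.73, 0.79 and 0.541, beside 1.1, 0.485 and 0.699 for Ltb. In the alignment-free tables Cd3d had 21.5, 8.7 and 14.6 TPM, against 1, 0 and 0 counts in the alignment-based ones. The other chains of the CD3 complex did not share this: Cd3e had 0.389, 0.00922 and 0.0829 TPM there and Cd3g 0.336, 0.214 and 0.419. The 6 markers of innate lymphoid and dendritic cells summed to 12.0, 10.04 and 10.7 TPM, most of it from Il7r (9.38 ± 0.855, not called), with Zbtb46 at 1.38 ± 0.131 (not called by limma's treat, called below by edgeR). The 5 neutrophil markers summed to 0, 1.44 and 0.29 TPM with 3 of them at 0 counts. The 4 mast cell markers summed to 1.96, 0.4 and 0.57 with 3 at 0 counts, and Kit (0.977 ± 0.856) was called below. Calls below the bound were made for 21.3% of all genes tested.

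The genes most like Tnf and Ltb in level were found by the largest difference from them in any of the 3 libraries, among 10529 other protein-coding genes. For Tnf they were Myo10, a myosin of filopodia, at 0.07 log2 units (194, 173 and 198 TPM), Slc25a37, the mitochondrial iron importer mitoferrin, at 0.10, and Cdk6, a cell cycle kinase, at 0.12. Within 0.5 log2 units of Tnf lay 59 genes. For Ltb they were Zfp235, a zinc finger gene of a large family whose reads may be shared, at 0.03 (0.79, 0.63 and 0.8 TPM), Pcolce, an enhancer of procollagen processing, at 0.04, and Dennd2c at 0.05. Within the same distance of Ltb lay 1400 genes. At TPM values as low as those of Ltb, the pseudocount widens the fold range of TPM that this distance spans. The counts of 1400 and 59 genes thus cannot show which of these levels was the more common.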

How the data were processed

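Total RNA-seq tables of 3 libraries of 1 group were used, with group, replicate number, dose, time and RNA amount from the labels. The deposited gene and transcript tables hold expected counts and TPM made from an alignment to the transcriptome with mm10 and GENCODE M21, per the deposited description files, with column names that RSEM writes. They also hold, per the file headers, posterior mean TPM and the bounds of 95% credibility intervals, a score of the authors' own model. The second deposited transcript table, here called alignment-free, holds estimated counts and TPM with column names that kallisto writes, and its transcripts were summed to genes. For tool versions, filters and strand settings nothing is given in the sources used here. The deposited TPM is scaled over every entry of a file, so an abundant RNA moves all others. Reads wholly within an intron match a gene only where an annotated transcript holds that intron. Other deposited columns (such as lengths and identifiers, "other" values) served for joins and for effective lengths.

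Levels are log2(TPM + 1) minus the library median of protein-coding genes whose mean expected count reached 10. The pseudocount of 1 understates differences between low genes. Levels, and paired differences of the 2 quantifications, were tested with limma 3.58.1 (treat, intercept only, bound of 1 log2 unit, two-sided, R 4.3.3), with p-values adjusted by Benjamini-Hochberg over all genes tested (threshold 0.05). Expected counts were rounded for edgeR 4.0.16, whose quasi-likelihood statistic against the same bounds was formed by hand, and DESeq2 1.42.0 gave size factors. Spread was measured as the SD, over libraries, of log2 CPM with TMM factors and a prior count of 2. Pairs of genes were compared by exact sign-flip permutation, and ratios of counts have exact Clopper-Pearson 95% intervals. Intervals and the 3 counts allowed by a count of 0 cover counting error alone, because without molecular identifiers reads are not independent molecules. Depth was 11277198, 24965749 and 19794886 expected counts.

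The genes named are Tnf, Lta and Ltb, every receptor and neighbour, the highest and lowest gene of each other list, every gene called below, the cell type markers over the count minimum and the 3 genes nearest in level. The members and lists were chosen with earlier results of these data known. Entries other than annotated genes were left out of the tests. Single values of some cell type markers are not reported here.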

Additional observations from a re-analysis of the deposited data

How the results depend on the processing

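Tnf kept its direction and its call under the 10 alternatives tried, with levels from 3.995 (minimum of 100 counts) to 6.01 (no minimum). Ltb kept its direction in those that gave a value, but with no minimum count its level was -0.74 with no call, and with a minimum of 100 counts it was -2.76 and untested. Leaving out 1 replicate gave Ltb levels of -1.77 to -1.62, and the call was lost without replicate 3. The level of Lta was -4.93 with a pseudocount of 0.1, -3.49 with a minimum of 100 and -2.93 in the alignment-free tables. With no minimum it was -1.47, and Lta was then tested and called below, next to the value of a gene at 0. A change of the minimum changes the genes behind the median: 22549 genes were tested with none and 7399 with 100.

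Over all genes, 4928 were called above and 5539 below with no minimum, and 1317 and 785 with a minimum of 100, against 2864 and 2859. Leaving out 1 replicate gave 1571 to 3342 genes below, the lowest without replicate 3, and the cause was not tested. Of the pathway genes 15 were above and 2 below with a minimum of 100, and 3 were below in the alignment-free tables. Among the neighbours 1 was below with a pseudocount of 0.1 and 1 in edgeR.

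The SD of log2 CPM of Lta was 0.41 with a prior count of 0.5. Leaving out 1 replicate gave 0.0906 to 0.3422 for Tnf, 0.0311 to 0.1967 for Ltb and 0.0573 to 0.3119 for Lta. Tnf-201 held 99.9% of Tnf in the alignment-free tables and 99.63% by posterior means. The other 126 results under alternatives kept their direction and side of the threshold, or their value within its tolerance, and 0 reversed. No paired analysis between groups was possible because the series holds 1 group. Lta rests on 1 to 2 counts a library and the shares of Ltb transcripts on 14 to 19.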
